A study of Mus musculus with 12 samples.

Results

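Neurexins, neuroligins, leucine-rich repeat transmembrane proteins (Lrrtm) and the immunoglobulin superfamily protein Igsf21 are synaptic adhesion molecules, and 9 of their genes were followed here: Nrxn2, Nrxn3, Nlgn1, Nlgn2, Nlgn3, Lrrtm1, Lrrtm2, Lrrtm4 and Igsf21. They were taken by symbol from a table of 24079 genes, and all 9 were among the 17823 genes tested. The set was chosen by name with results of the knockout against wild-type comparison in view, and Igsf21 was selected on its call in the study's own test of these libraries. The differences between genotypes below are therefore given as a description of these 12 libraries, with intervals. Counts of members past a threshold are set beside the same counts over all genes and serve as no test of the members.

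Neurexins are presynaptic receptors that reach across the cleft to bind several kinds of partner on the other side. Neuroligins and Lrrtm proteins are postsynaptic partners of this kind, and Igsf21 binds a neurexin and acts in the building of inhibitory presynaptic terminals. Alternative splicing of neurexins and neuroligins sets which partners can bind, and the intracellular ends of neurexins and neuroligins hold scaffold proteins with PDZ domains.

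Ribosome-bound RNA of CA1 pyramidal neurons was sequenced in 6 wild-type (WT) and 6 Fmr1 knockout (KO) libraries, to compare the translated RNA of these neurons with and without FMRP, the RNA-binding protein that Fmr1 encodes. WT mice were Wfs1-CreERT2:RiboTag and KO mice were Wfs1-CreERT2:RiboTag:Frm1 knockout (as the labels spell Fmr1), so both genotypes carried a tamoxifen-inducible Cre recombinase driven by the Wfs1 promoter and the HA-tagged ribosomal protein Rpl22 that Cre switches on. Both received tamoxifen at 100 mg/kg on 3 days, and hippocampi were taken 1 week later from adult mice of 2 to 6 months. Each library came from a pool of 4 to 6 mice, and the tag marks Wfs1-expressing cells. Each library is a bulk sample, and it also held RNA of other cells, as the markers below show.

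Libraries held 39400980 to 65565479 reads counted on genes. Fmr1 had 1971 to 2608 reads in WT libraries, 0 reads in 5 KO libraries and 1 read in the other. The summed level of 7 CA1 pyramidal marker genes was 7398 to 9085 reads scaled to a common library size (CPM) in WT and 7137 to 8458 CPM in KO libraries. The medians of this sum were 8531 CPM in WT and 7760 CPM in KO, and its part in the results was not tested. Camk2a alone gave most of it, at 5596 to 6659 CPM in WT and 5450 to 6303 CPM in KO libraries. Wfs1 itself stood at 942 to 1434 CPM in WT and 942 to 1176 CPM in KO. Markers of other cells were present too: 5 choroid plexus markers, all detected, summed to 6374 to 11856 CPM in WT and 8299 to 17487 CPM in KO libraries, and 5 endothelial markers to 25.8 to 40.1 CPM and 35.7 to 50.8 CPM. The 11 interneuron markers, all detected, summed to 437 to 520 CPM in WT and 392 to 481 CPM in KO libraries. The 6 astrocyte markers, all detected, summed to 610 to 783 CPM in WT and 689 to 1081 CPM in KO libraries. For 6 oligodendrocyte markers the sums were 1085 to 1629 CPM in WT and 978 to 1491 CPM in KO. Ttr alone gave most of the choroid plexus sum, at 5927 to 11203 CPM in WT and 7801 to 16437 CPM in KO libraries. That sum was used as a covariate in an added fit, and the part of the other cell types in the results was not tested. In pooled tissue, fewer cells of a type and less RNA per cell cannot be told apart.

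The kinship within the neurexins and within the neuroligins shows in the ends of their coding sequences, which encode the residues that PDZ domains hold. The last 24 coding bases before the stop codon are given 5′ to 3′ for the longest coding transcript of each gene in GENCODE (GRCm38, the same build as mm10), with the last 12 bases in capitals.
Nrxn2: aacaaagacaaaGAGTATTACGTC
Nrxn3: aacaaggacaagGAGTATTATGTG
Nlgn1: cattcacattcaACAACCAGGGTA
Nlgn2: catccccactccACCACTCGGGTA
Nlgn3: cactcacactccACTACCCGTGTA
Both neurexins shared 20 of 24 bases. The neuroligins shared 17 of 24 bases between Nlgn1 and Nlgn2, and 18 of 24 in each of the pairs with Nlgn3. Between a neurexin and a neuroligin, by contrast, 4 to 7 of 24 bases were the same. Lrrtm1, of another family, shared 9 of 24 with Nrxn2 and 11 of 24 with Nrxn3. These stretches lie at chr19:6532122-6532145 (plus strand) for Nrxn2, chr12:90332384-90332407 (plus) for Nrxn3, chr3:25433641-25433664 (minus) for Nlgn1, chr11:69825206-69825229 (minus) for Nlgn2 and chrX:101320236-101320259 (plus) for Nlgn3.

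The 9 genes differ much in genomic extent (RefSeq, GRCm38). Nrxn3 (Entrez 18191) runs from 88722701 to 90334935 on chromosome 12, and Nlgn1 (Entrez 192167) from 25421808 to 26332866 on chromosome 3. Lrrtm4 (Entrez 243499) covers 80018858 to 80810162 on chromosome 6, and Igsf21 (Entrez 230868) covers 140026852 to 140246983 on chromosome 4. Nlgn2 (Entrez 216856), at 69823123 to 69837784 on chromosome 11, and Lrrtm2 (Entrez 107065), at 35209003 to 35215024 on chromosome 18, are compact. Lrrtm1 (Entrez 74342, chromosome 6, 77229210 to 77259915) and Lrrtm2 lie inside the spans of the alpha-catenin genes Ctnna2 and Ctnna1. Nrxn2 (Entrez 18190) is on chromosome 19 from 6418756 to 6533217, and Nlgn3 (Entrez 245537) on chromosome X from 101299179 to 101321350. Exons of Nlgn3 overlap those of Gm21986 on the same strand, so reads from the shared exons cannot be assigned to either with certainty.

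Among the members, Igsf21, which was selected on its call in these libraries, was the one whose genotypes were furthest apart. Its level was lowest at 13.6 CPM, at a median of 15.9 CPM and highest at 17.3 CPM in WT libraries, and in KO libraries it was 10.2, 11.4 and 13.5 CPM in the same order. Every KO library was below every WT library, although the lowest WT library (13.64 CPM) and the highest KO library (13.55 CPM) nearly touched. The KO mean was 74.9% of the WT mean (11.7 ± 1.29 against 15.7 ± 1.27 CPM, SD, n = 6 each), a log2 fold change of -0.42 with a standard error (SE) of 0.09 and a 95% confidence interval of -0.61 to -0.22 in edgeR's quasi-likelihood fit. These values rest on 476 to 884 reads per library.

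The members are counted here against all genes tested. With edgeR and p-values adjusted over all genes (threshold 0.05), 0 of the 9 members passed, while 4 of 17823 genes (0.0224%) passed. In DESeq2's Wald test, 1 member passed, which was Igsf21, and 84 genes (0.471%) passed. An unadjusted p under 0.05 in edgeR was reached by 4 members, all lower in KO, and by 3.67% of all genes tested in that direction, while 4.29% of all genes reached it in the direction of a higher level in KO. Full separation of the genotypes with KO below WT was found in 1 member, and in 73 of 17823 genes (0.41%). The fold change was below 0 in 8 of 9 members and in 48.6% of all genes tested. The median log2 fold change was -0.12 over the members and 0.00 over all genes. Because the members were chosen with this contrast known, nothing is read from these counts.

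**Figure D1:**
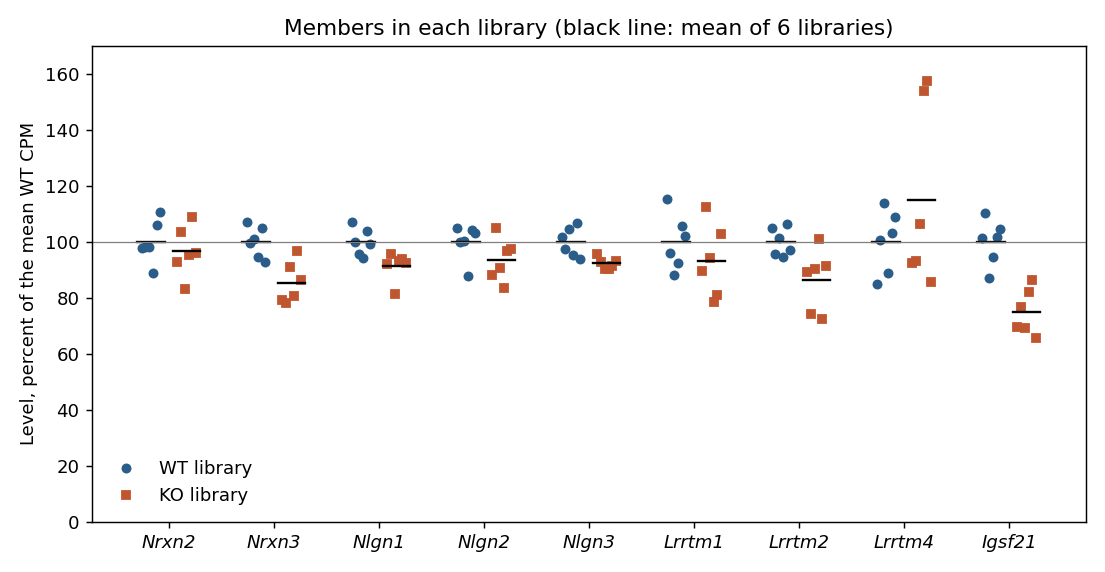
Level of each member in each of the 6 WT (circles) and 6 KO (squares) libraries, as a percent of that gene's mean WT CPM, with black lines for the means. The KO squares of Igsf21 all lie below its WT circles, and 2 KO libraries of Lrrtm4 stand far above the others.

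The neurexins differed in the size of their fold changes. Nrxn3 stood at 157, 170 and 181 CPM (lowest, median, highest) in WT libraries, and at 132, 141 and 164 CPM in KO libraries. In KO, 5 of 6 libraries were below the lowest WT library, and KO replicate 5 lay within the WT range. The KO mean was 85.3% of WT (log2 fold change -0.23, SE 0.06, 95% interval -0.36 to -0.10). Nrxn2 stood at 172, 190.5 and 214 CPM in WT and at 161, 185 and 211 CPM in KO, so its ranges overlapped almost fully. Its log2 fold change was -0.05 (SE 0.07, interval -0.20 to 0.10). Per kilobase of exon, Nrxn3 made up 49.0% ± 2.35 of the sum of both genes in WT and 45.8% ± 3.02 in KO (SD, n = 6 each), with library ranges of 44.5 to 51.2% and 41.9 to 51.1%. The share rests on the merged exon length: per kilobase of the longest transcript, Nrxn2 and Nrxn3 were at 29.1 and 21.4 CPM in WT and at 28.1 and 18.2 CPM in KO. The shift in balance was about the size of the spread between libraries.

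The neuroligins, which differ in the synapses they serve (Nlgn1 mainly excitatory, Nlgn2 inhibitory, Nlgn3 both), were all slightly lower on average. Nlgn1 was at 55.8, 59.1 and 63.4 CPM in WT and 48.2, 55.0 and 56.8 CPM in KO, and 5 of 6 KO libraries were below the WT minimum (log2 fold change -0.13, SE 0.06, interval -0.26 to -0.0029). Nlgn3 was at 63.2, 67.0 and 71.7 CPM in WT and 60.6, 62.0 and 64.3 CPM in KO, again with 5 of 6 KO libraries below the WT minimum (-0.12, SE 0.05, interval -0.23 to 0.0005). The levels of Nlgn2 were 382, 443 and 457 CPM in WT and 363, 408 and 456.5 CPM in KO, with 1 KO library below the WT minimum (-0.10, SE 0.06, interval -0.23 to 0.04). The balance within the family differed by less than the spread between libraries, as Nlgn2 made up 86.6% ± 0.577 of the family's level per kilobase in WT and 86.7% ± 0.901 in KO. Nlgn3 was at 8.36% and 8.29%, and Nlgn1 at 5.09% and 4.99%.

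The Lrrtm genes had fold changes of both signs. Lrrtm2 was at 30.6, 32.1 and 34.4 CPM in WT and 23.4, 29.0 and 32.7 CPM in KO, with 5 of 6 KO libraries below the WT minimum (log2 fold change -0.21, SE 0.08, interval -0.39 to -0.03). Lrrtm1 overlapped, at 72.1, 81.0 and 94.2 CPM in WT and 64.1, 75.2 and 91.8 CPM in KO (-0.10, SE 0.09, interval -0.29 to 0.09). Lrrtm4, which is known for its place in dentate gyrus granule cells and for binding heparan sulphate proteoglycans, was at 18.4, 22.05 and 24.6 CPM in WT and at 18.6, 21.6 and 34.1 CPM in KO, the one member with a positive fold change (0.20, SE 0.15, interval -0.11 to 0.51).

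A pair of KO libraries carried that value. KO replicates 4 and 5 had 33.4 and 34.1 CPM of Lrrtm4, while the other 4 KO libraries lay at 18.6 to 23.1 CPM, inside the WT range. Without those 2 libraries the KO mean was 20.5 CPM, and the log2 fold change of Lrrtm4 was -0.08 (SE 0.10). The same 2 libraries held 64.1 and 66.2 CPM of Lrrtm1, the lowest levels of that gene, and without them its fold change was 0.00 (SE 0.08), while that of Igsf21 was -0.51 (SE 0.10). They were not alike in Prox1, the granule cell marker (19.9 and 7.31 CPM, against 11.1 to 24.4 CPM in WT), and their summed CA2, CA3 and dentate markers were 287 and 317 CPM, against 311 to 344 CPM in WT. Both had low interneuron marker sums, 392 and 402 CPM, below the whole WT range of 437 to 520 CPM. Of the genes in that sum, Gad1 and Slc32a1 were inside the WT range in both libraries, and they gave a small part of it. Which of its other genes, Cck among them, lowered the sum was not tested. The sum is therefore not read as less interneuron RNA. Gad1 was at 64.9 and 56.4 CPM, against 47.6 to 97.6 CPM in WT. Slc32a1 was at 15.2 and 16.5 CPM, against 10.5 to 27.3 CPM in WT. What sets the 2 libraries apart was not tested.

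The 5 genes below followed Lrrtm4 most closely across the 12 libraries, by Pearson's r of log2 CPM among 13768 genes with a mean of at least 1 CPM. This gene's neighbours were looked up after its values were seen. They were Tiam2 (r = 0.95), Necab3 (r = 0.94), Cpne4 (r = 0.94), Trp53i11 (r = 0.94) and C2cd4c (r = 0.93). Tiam2 was at 32.6 and 31.5 CPM in KO replicates 4 and 5 and at 12.9 to 21.6 CPM in the other 10 libraries. Cpne4 was at 27.9 and 31.2 CPM in those 2 and at 15.1 to 18.7 CPM in the others. These likenesses rest on the same 2 libraries and describe no more than those.

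With the summed choroid plexus markers as a covariate, the log2 fold changes were -0.35 for Igsf21, -0.21 for Nrxn3, -0.27 for Lrrtm2, -0.11 for Nlgn1 and -0.14 for Nlgn3. The value was -0.01 for Nlgn2, 0.00 for Nrxn2, 0.02 for Lrrtm1 and 0.13 for Lrrtm4. Leaving out KO replicates 4 and 5 put all 9 members below 0, and the covariate put 7 of 9 below 0.

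**Figure D2:**
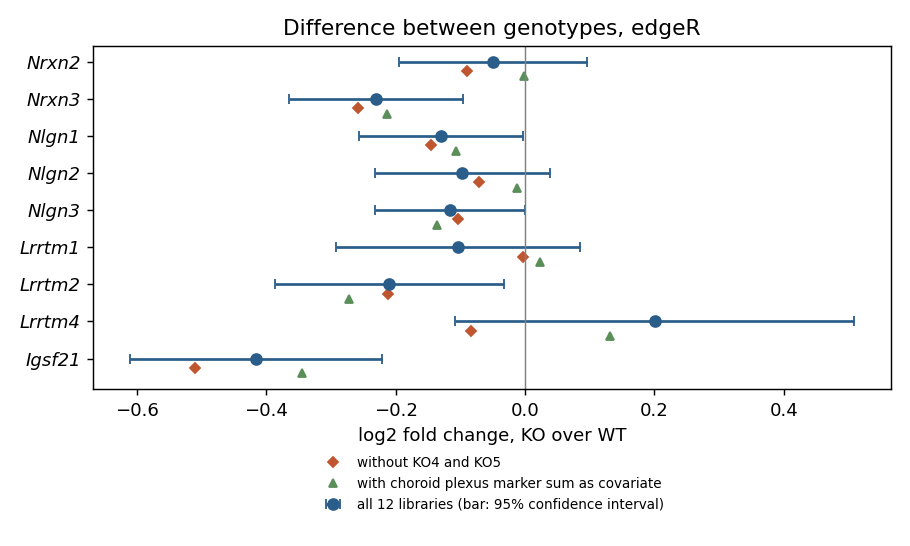
Log2 fold change of each member, KO over WT, with the 95% confidence interval from all 12 libraries (circles), without KO replicates 4 and 5 (diamonds) and with the choroid plexus marker sum as a covariate (triangles). Igsf21 lies at -0.42, -0.51 and -0.35, and Lrrtm4 changes from 0.20 to -0.08 without those 2 libraries.

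Levels can be compared between genes per length, as CPM per kilobase of the merged GENCODE exons of each gene. In WT libraries the order was Nlgn2 at 75.3 ± 4.79 CPM per kilobase (SD, n = 6), Lrrtm1 at 26.9 ± 2.64, Nrxn2 at 14.0 ± 1.05, Nrxn3 at 13.4 ± 0.755, Igsf21 at 7.91 ± 0.643, Nlgn3 at 7.25 ± 0.374, Lrrtm2 at 5.37 ± 0.264, Nlgn1 at 4.42 ± 0.214 and Lrrtm4 at 3.53 ± 0.395. By the mean of all 12 libraries on this scale, Nlgn2 was at percentile 96.8 and Lrrtm4 at percentile 53.9 of all genes with a length. Igsf21, with few reads but a short transcript, was at percentile 66.1 by the same mean. In KO libraries the means were 70.4 for Nlgn2, 25.1 for Lrrtm1, 13.6 for Nrxn2, 11.5 for Nrxn3, 6.69 for Nlgn3, 5.93 for Igsf21, 4.64 for Lrrtm2, 4.05 for Lrrtm4 and 4.04 for Nlgn1 CPM per kilobase.

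Neighbours in the order were compared within libraries with exact two-sided sign-flip permutation tests of the difference in log2 level per length (16 comparisons, 8 in each genotype). The order was taken from the means of the same libraries, so a same order in every library partly restates how the pairs were picked. The smallest p that 6 libraries allow is 0.03125, and its adjusted value over the 16 was 0.05, so no pair fell under the threshold of 0.05. In WT, 6 of 8 neighbouring pairs had the same order in 6 of 6 libraries, with exact p = 0.03125 each. Nrxn2 and Nrxn3 (mean log2 difference 0.06, in that order in 4 of 6 libraries, exact permutation p = 0.344) and Igsf21 and Nlgn3 (0.12, 5 of 6 libraries, exact permutation p = 0.156) did not keep their order in every library on this length. In KO libraries the pairs that did not keep their order in every library were Nrxn2 and Nrxn3 (0.24, exact permutation p = 0.0625), Nlgn3 and Igsf21 (0.18, exact permutation p = 0.0938), Lrrtm2 and Lrrtm4 (0.23, exact permutation p = 0.25) and Lrrtm4 and Nlgn1 (-0.04, exact permutation p = 0.938). With the longest annotated transcript in place of the merged exons, Nrxn2 (29.1 CPM per kilobase in WT) ranked above Lrrtm1 (27.6), so that order depends on the length used. On that length Nrxn2 was above Nrxn3 by 0.44 (log2) in WT and 0.62 in KO, where the SD of the difference between libraries was 0.14 and 0.18. In KO the difference of Lrrtm2 over Lrrtm4 was -0.15.

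**Figure D3:**
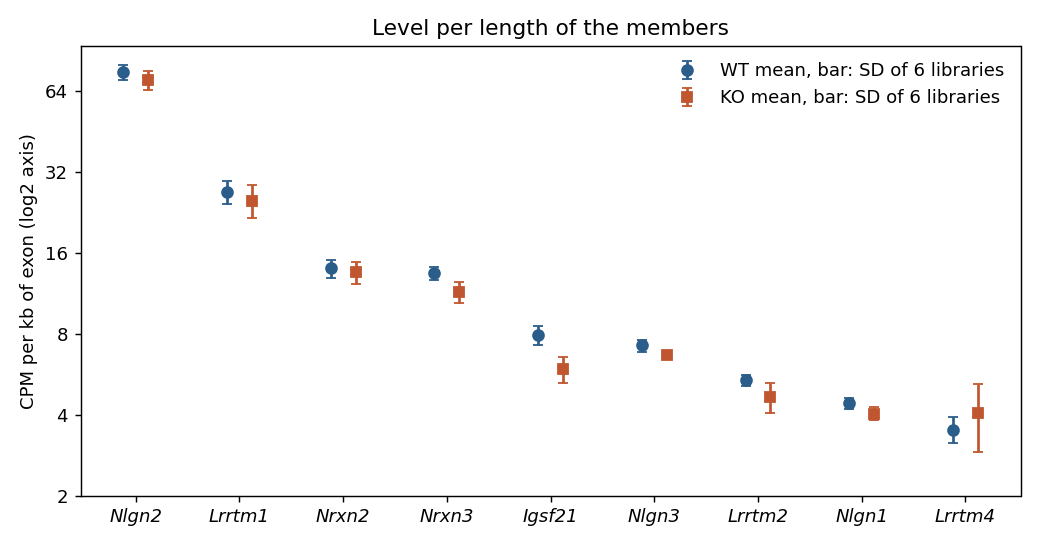
Mean level per kilobase of exon of the 9 members in WT (circles) and KO (squares) libraries on a log2 axis, with bars for the SD of 6 libraries. Nlgn2 leads at 75.3 CPM per kilobase in WT, where Lrrtm4 is last at 3.53. Igsf21 and Nlgn3 exchange places between genotypes, as do Nlgn1 and Lrrtm4. The library ranges of both pairs overlap in KO, and those of Igsf21 and Nlgn3 also in WT.

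Spread between libraries differed among the members. The coefficient of variation in KO libraries was 2.26% for Nlgn3, 5.60% for Nlgn1 and 8.65% for Nrxn3, and it reached 11.0% for Igsf21 and 28.2% for Lrrtm4. After the genotype means were taken away, Nlgn2 and Lrrtm1 deviated together across the 12 libraries (Pearson's r = 0.69), as did Nrxn2 and Nlgn1 (r = 0.68). Lrrtm1 and Lrrtm4 deviated in opposite directions (r = -0.74). KO replicates 4 and 5 had the highest Lrrtm4 levels (33.4 and 34.1 CPM) and the lowest Lrrtm1 levels (64.1 and 66.2 CPM). Whether the opposite directions hold without these replicates was not tested. The 12 libraries share their depth and tissue makeup, and the correlations are descriptions of 12 points.

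Among the genes closest to Igsf21 in level across the 12 libraries were Kctd16 (r = 0.91), Agbl3 (r = 0.89), Nrsn2 (r = 0.88) and Car4 (r = 0.88). With the genotype means taken away, they were Rarb (r = 0.88), Slc4a3 (r = 0.86), Rasgef1c (r = 0.86), Ackr1 (r = 0.86) and Nrcam (r = 0.85), and the first list shared no gene with the second. Rasgef1c was at 8.44 and 10.7 CPM in KO replicates 4 and 5 and at 0.990 to 2.60 CPM in the others. Slc4a3 was at 56.4 and 71.7 CPM in those libraries against 43.0 to 54.1 CPM, and Ackr1 at 38.4 and 41.3 CPM against 26.3 to 35.2 CPM. Rarb stood above the others in KO replicate 5 alone, and Nrcam in neither. The second list thus rests in part on those libraries, and the nearest genes, picked from 13768, are a description. Nrxn3 was closest to Gria2, which encodes an AMPA receptor subunit (r = 0.93), then to Gm13446, Lrmp, Sgsm2 and 9430020K01Rik (r = 0.91 to 0.87). Without the genotype means, Nrxn3 was closest to Son (r = 0.87), Ypel4 (r = 0.84), Myh10 (r = 0.83), Npas4 (r = 0.82) and Zfp956 (r = 0.82). Nlgn2 was closest to Zdhhc14 (r = 0.96), Ccdc149 (r = 0.94), Prrt2 (r = 0.94), Nol6 (r = 0.93) and Galnt18 (r = 0.93), and Zdhhc14, Prrt2 and Ccdc149 stayed among its closest 5 without the genotype means, with Timm44 (r = 0.94) and Epn1 (r = 0.93).

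Partners of the members were read from lists of 104 genes, all of which were tested. In edgeR 0 of them passed the threshold, as in DESeq2, where 0.0224% and 0.471% of all genes passed. An unadjusted p under 0.05 in edgeR was found for 16 genes with lower and 1 with higher values in KO. Of all genes tested, 3.67% and 4.29% had such a p in these directions, and 48.6% had a fold change below 0. The lists were chosen with earlier results of these data known, so nothing is read from these counts. Ligands and binding proteins of neurexins (21 genes) were divided, with 12 lower and 9 higher and a median log2 fold change of -0.01 (-0.10 without KO replicates 4 and 5 and -0.03 with the covariate, each with 12 below 0). Sparcl1, an astrocyte-secreted protein that bridges neurexins and neuroligins, was the most abundant of them, at 1104 ± 58.5 CPM in WT and 1238 ± 172 in KO (SD, n = 6; log2 fold change 0.17, SE 0.08, edgeR adjusted p = 0.634). The astrocyte marker sum ran higher in KO too, at a median of 771 CPM against 718 CPM, and the part of astrocyte RNA in this value was not tested. Without KO replicate 1 the log2 fold change of Sparcl1 was 0.10, and with the choroid plexus covariate it was 0.11. Lphn1, a latrophilin, was next, at 527 ± 26.3 and 482 ± 37.0 CPM (-0.13, SE 0.06, edgeR adjusted p = 0.627, and -0.07 with the covariate). Cbln2, a secreted cerebellin, had the smallest p among the higher genes, from 2.36 to 3.33 CPM (0.50, SE 0.23, edgeR adjusted p = 0.618, and 0.23 without KO replicates 4 and 5).

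Postsynaptic proteins that bind or anchor neuroligins (14 genes) had 11 values below 0 and a median of -0.06. Magi2, a scaffold, was at 116 ± 9.30 CPM in WT and 100.1 ± 9.93 CPM in KO (log2 fold change -0.22, SE 0.07, edgeR adjusted p = 0.415), and Magi1 was at 42.2 and 47.6 CPM (0.18, SE 0.12, edgeR adjusted p = 0.781), with -0.03 without KO replicates 4 and 5 and 0.06 with the covariate. Dlg4, which encodes PSD-95, was at 939 ± 71.7 and 839.5 ± 97.0 CPM (-0.16, SE 0.08, edgeR adjusted p = 0.621), and its log2 fold change was -0.07 with the covariate. Of the 14 genes, 12 were below 0 without KO replicates 4 and 5, and 9 with the covariate. All 8 cytoplasmic partners of neurexins had values below 0, with a median of -0.07 and a range of -0.14 to -0.01, but 6 of 8 were below 0 without KO replicates 4 and 5 and 7 of 8 with the covariate. The lowest was Epb4.1l3 (127 ± 7.46 and 115 ± 5.27 CPM, -0.14, SE 0.06, edgeR adjusted p = 0.512), and the most abundant were Apba2 (288 and 273 CPM, -0.08, and -0.02 with the covariate) and Apba1 (235 and 214 CPM, -0.13).

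Other synaptic organizers, the longest list, had 38 of 42 values below 0, a median log2 fold change of -0.13, and 11 with an unadjusted p under 0.05, all lower in KO. Of all genes tested, 48.6% were below 0 and 3.67% had such a p in that direction. None passed the threshold (smallest edgeR adjusted p = 0.292). Tenm2, a teneurin and the gene with that smallest value, was at 155 ± 12.2 CPM in WT and 129 ± 11.99 CPM in KO (-0.26, SE 0.07), and its ranges overlapped at 139 to 168 and 117 to 142 CPM. Clstn1, a calsyntenin and the most abundant of the list, was at 1871 ± 144 and 1827 ± 112 CPM (-0.03, SE 0.06), and Cadm3 at 407 and 386 CPM (-0.08, SE 0.07). With the covariate Clstn1 was at 0.02 and Cadm3 at -0.03, and without KO replicates 4 and 5 Cadm3 was at -0.15. Ptprf, a receptor phosphatase of presynaptic terminals, was the highest of the list (0.12, SE 0.11), and was at -0.04 with the covariate. The lowest values were of weakly expressed genes named after their values were seen: Igsf9b at 2.33 and 1.29 CPM (-0.86, SE 0.25) and Sdk2 at 2.31 and 1.55 CPM (-0.58, SE 0.19). Sdk2 had every KO library below every WT library, as did 0.41% of all genes tested. Without KO replicates 4 and 5 39 of the 42 were below 0 (median -0.15), and with the choroid plexus covariate 34 (median -0.11), against 48.8% and 49.8% of all genes. As for the members, this is a description of the same libraries, and whether the list differs from other genes was not tested.

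Splicing factors known for neurexin exons (8 genes) had a median of -0.03, with Rbfox1 at 503 and 492 CPM (-0.03) and Rbfox2 at 392 and 386 CPM (-0.02). Rbfox3, the neuronal marker NeuN, was at 406 ± 27.0 and 370 ± 27.7 CPM (-0.13, SE 0.06, edgeR adjusted p = 0.621, and -0.06 with the covariate), and Khdrbs1, also called Sam68, at 96.7 and 103 CPM (0.10, SE 0.07). The sign of this list's median turned, to 0.0036 without KO replicates 4 and 5 and to 0.03 with the covariate. Proteases that shed neurexins or neuroligins (6 genes) had 1 value below 0 and a median of 0.03, with Adam10 at 76.5 and 73.0 CPM (-0.07, SE 0.06) and Ncstn, a subunit of gamma-secretase, at 66.5 and 70.6 CPM (0.09, SE 0.07). Here 3 of 6 were below 0 without KO replicates 4 and 5 (median 0.01), and 4 of 6 with the covariate (median -0.02), so the list had no stable direction. Of 5 other Igsf genes, 4 had values below 0 and the median was -0.03, with Igsf8 at 196 and 193 CPM (-0.03), Igsf11 at 60.4 and 57.5 CPM (-0.07), Igsf3 at 17.5 and 16.1 CPM (-0.12) and Igsf1 at 12.8 and 14.0 CPM (0.13). Without KO replicates 4 and 5, 2 of the 5 were below 0 and the median was 0.03, and with the covariate 4 were below 0 and the median was -0.09. The log2 fold change of Igsf21 was below that of each of these 5, but Igsf21 was selected on its call in these libraries, so nothing is read from this.

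**Figure D4:**
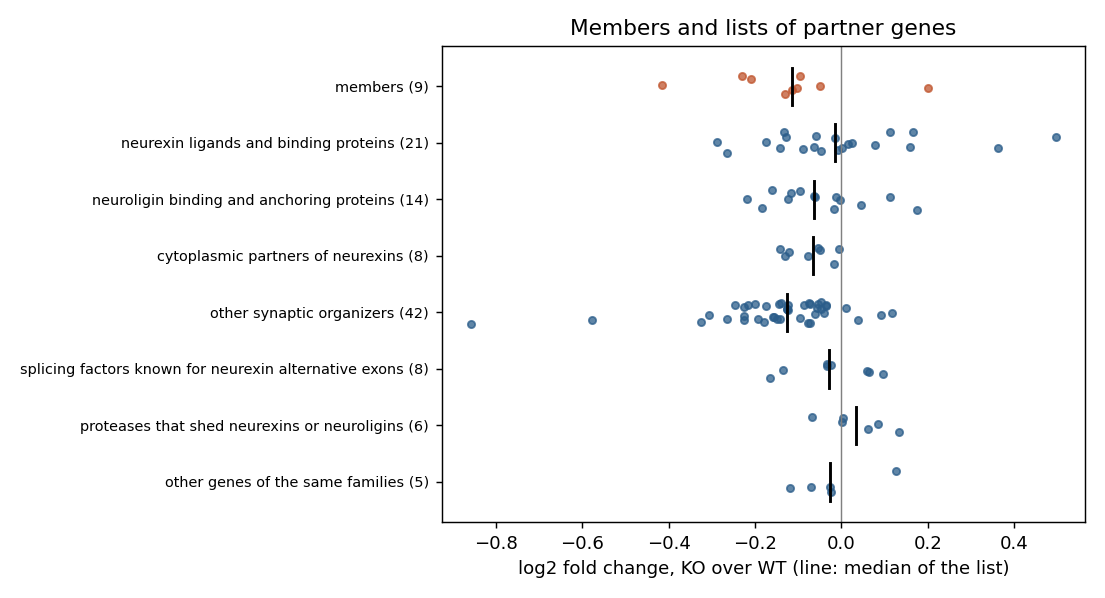
Log2 fold change, KO over WT, of each member (top row) and of each gene in 7 lists of partners, with a black line for the median of each list. Medians run from -0.13 for other synaptic organizers to 0.03 for proteases, and Igsf21 is the leftmost point of the members.

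The coding sequences of the members were also read for 4 short motifs that are associated with FMRP binding, namely ACTG or ACTT and also TGGA or AGGA, searched on the coding strand with overlaps counted. The median over 15640 genes was 25 matches per kilobase. Igsf21 had 20.6 matches per kilobase, at percentile 21.5, and Nrxn3 had 24.2, at percentile 44.1. Lrrtm2 was the one member above the median, with 28.4 (percentile 73.9), and Nlgn2 was lowest with 20.3. The richest 60-base window of Igsf21 lies at chr4:140034649-140034708 on the minus strand within 1 exon, and is shown because that gene had the largest fold change of the 9, with motif matches in capitals.
Igsf21: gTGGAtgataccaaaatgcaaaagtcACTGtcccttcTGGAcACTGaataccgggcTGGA
It holds 5 matches, and 62.4% of all genes have a window with at least as many, so the letters are common. The neurexins were set apart by the length of their coding sequence, at percentile 96.0 for Nrxn2 and 95.2 for Nrxn3, whereas Igsf21 was at percentile 51.0. Igsf21 was GC-rich (60.9%, percentile 90.8), as were Nlgn2 (62.7%) and Nrxn2 (62.6%), and Nrxn3 (52.5%) was not.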

How the data were processed

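Reads of stranded libraries were demultiplexed with bcl2fastq 2.17 and aligned by the authors to mm10 with TopHat2 2.1.1 and Bowtie2 2.2.8, per the labels, and reads per gene were counted with HTSeq 0.6.1p1. The deposited values are raw counts without normalization, and 4594 of 24079 genes had 0 reads throughout. The 17823 genes whose reads summed to 15 or more were tested. Counts were scaled with TMM and fitted with edgeR 4.0.16 (quasi-likelihood, no covariate, R 4.3.3), with Benjamini-Hochberg adjustment at 0.05. SE is the fold change divided by the square root of F. Levels are TMM-scaled CPM. Alternatives were DESeq2 1.42.0, limma 3.58.1 voom, other scalings and filters, robust fitting, a replicate block and each library left out. Leaving out KO replicates 4 and 5 together and the choroid plexus covariate were added after seeing the data. The members and lists were chosen with earlier results of these data known. The genes named were the members, 2 most abundant genes and the smallest p in each direction per list, and the 5 nearest genes to Igsf21, Nrxn3 and Nlgn2, with exceptions stated. The fit was tested on simulated data. Libraries are pools of mice, so p-values measure the spread between pools. Coordinates come from RefSeq, exon lengths and coding sequences from GENCODE vM21. Of the list of related family genes, 2 are not reported here, nor are 2 other genes that the naming rule gave.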

Additional observations from a re-analysis of the deposited data

Results flagged for a closer look

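In 66 groups of 6 libraries (the 9 members and 24 named partner genes in each genotype), 4 single libraries stood apart from the rest by a gap above Dixon's critical value for such a group, where chance gives about 1 in 20 groups (3.3 of 66). Nlgn1 was at 48.2 CPM in KO replicate 3, against 54.5 to 56.8 CPM in the other KO libraries. In WT replicate 4 Nlgn2 was at 382 CPM against 435 to 457 CPM, and Cadm3 at 349 CPM against 405 to 432 CPM. Igsf11 was at 46.3 CPM in KO replicate 5, against 57.6 to 63.0 CPM. Lrrtm4 was not among them, since its 2 high KO libraries lie close to each other.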

How the results depend on the processing

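Under the 24 alternatives, the sign of the member fold changes held in 214 of 216 values. The exceptions were Lrrtm4 without KO replicates 4 and 5 (-0.08) and Lrrtm1 with the choroid plexus covariate (0.02). All 216 moved by less than the SD between single libraries, but this limit is wide and shows little. It exceeded the SE of the fold change for each member (0.30 against 0.15 for Lrrtm4), and the sign change of Lrrtm4 stayed within it. Igsf21 ranged from -0.51 to -0.35 and passed the threshold in DESeq2 alone. Genes past the threshold numbered 84 with DESeq2 (1 member), 1 with at least 10 reads in every library, 2 without KO replicates 4 and 5 and 1 with the covariate, against 4, and 2 to 6 with one library left out (2 without WT replicates 4, 5 or 6 or KO replicates 1, 4, 5 or 6). Members past the threshold stayed at 0 with each library left out, and list genes at 0 throughout. With the replicate block 4 genes passed, and Igsf21 was at -0.42. The labels do not say that the shared numbers of the libraries mark pairs. Deviations of same-numbered libraries correlated at -0.24 to 0.35 over genes with a mean log2 CPM above 1. Libraries of unlike number were not compared, so these values do not settle whether the numbers mark pairs. Named partner genes reversed in 14 of 576 values, none past the threshold: with one library left out, Igsf8 ran from -0.075 to 0.039 and Rbfox2 from -0.045 to 0.0017; without KO replicates 4 and 5, Magi1 was at -0.026, Rbfox1 at 0.014 and Igsf8 at 0.031; and with the covariate Clstn1 was at 0.024, Ptprf at -0.039, Rbfox1 at 0.049, Rbfox2 at 0.011, Ncstn at -0.0044, Igsf8 at 0.14 and Igsf1 at -0.13. The cause was not tested. The order by level per length kept 7 of its 8 steps with the longest transcript.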
